A study of Saccharomyces cerevisiae with 27 samples.

Results

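The genes of glycolysis, ethanol fermentation and the pentose phosphate pathway were followed in budding yeast strains that differ in regulators of cohesin, the ring complex that holds sister chromatids together. The members were taken by name, as the probe sets whose gene symbol on the array platform is one of 44 listed genes. A probe set was found for 43 of them, out of 5716 probe sets tested. TDH2, a glyceraldehyde-3-phosphate dehydrogenase gene, had none under its symbol, so its pair with TDH3 was not analysed here. The members comprise 11 main isoenzymes, 16 alternative isoenzymes of the same steps, 9 genes for steps with a single gene or for subunits, 4 regulators of flux and 3 transcription factors.

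The series compared a mutant of Eco1, the acetyltransferase that establishes cohesion, with deletions of FOB1, which encodes the protein that blocks replication forks in ribosomal DNA, and of RAD61, which encodes a factor that releases cohesin. RNA of 27 cultures from 8 genotypes was hybridised to Affymetrix expression arrays, in 9 groups of 3 replicates over 2 experiment dates. All cultures grew exponentially at 30 °C in rich glucose medium with an amino acid supplement.

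On the later date, the groups were wild type (W303, mating type a), eco1-W216G and the fob1 deletion. On the earlier date, they were the same fob1 deletion strain, eco1-W216G with the fob1 deletion, the rad61 deletion, eco1-W216G with the rad61 deletion, an mcd1 mutant that carries REC8 under the MCD1 promoter, and the same with a fob1 mutation. MCD1 encodes the mitotic kleisin subunit of cohesin, and REC8 encodes its meiotic counterpart. Each genotype was 1 strain, so genotype and strain cannot be told apart, and wild type was run on the later date only. The labels do not say whether replicates were started from separate colonies, so the spread is that between cultures.

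Glycolysis turns glucose into pyruvate, and fermentation reduces the product to ethanol and returns NAD. The pentose phosphate pathway branches off at glucose 6-phosphate and supplies NADPH and the sugars of nucleotides. Many of these steps in Saccharomyces cerevisiae are encoded by gene pairs, in which one copy carries most of the flux on glucose and the other is known for expression on poor carbon sources, near stationary phase or under stress.

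The mutated genes followed their labels in part. ECO1 had a mean log2 intensity of 4.61 to 4.92 in the 3 groups labelled with the eco1 mutation and 7.85 in wild type. The name eco1-W216G stands for an amino acid change, which does not by itself remove a transcript, yet ECO1 read nearer to the deleted genes than to wild type in these strains. What they carry at ECO1 beyond that name is not known here, and eco1-W216G is used below as the name of the labelled strains. FOB1 read 3.84 to 4.22 in the 4 groups with a fob1 mutation against 9.91 in wild type, and RAD61 read 3.93 and 3.77 in the rad61 deletions against 7.24. In the strains labelled as mcd1 with REC8, however, MCD1 read 11.0 in both groups, against 10.96 to 11.34 in the other groups, and REC8 read 5.70 and 5.89, against 5.23 to 5.66. Whether those probe sets lie in the replaced parts of the genes is not known here. Of the markers of a cells, STE2, MFA1 and MFA2 were bright in all groups, while BAR1 read 3.98 to 4.12, at the level of a deleted gene. STE3, a marker of alpha cells, read 5.82 to 6.69. Within groups the lowest correlation between arrays was 0.9858 to 0.9971. Replicate 2 of the rad61 deletion and replicate 2 of the later fob1 deletion stood apart from their groups, and results that rest on them are given with and without them.

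Over the 9 groups, most alternative isoenzymes moved more than the main isoenzymes. The range of the group means, highest minus lowest, had a median of 1.24 on the log2 scale over the 16 alternative isoenzymes and of 0.08 over the 11 main isoenzymes, against 0.44 over all probe sets. The 9 single-gene steps and subunits had a median range of 0.18, the 4 regulators of flux 0.70 and the 3 transcription factors 0.69. TDH3, the main glyceraldehyde-3-phosphate dehydrogenase gene and the brightest member, held the narrowest range of the members at 0.03. NQM1, the alternative transaldolase gene, held the widest at 3.23, which is 9.37-fold. The alternative isoenzymes ADH3, PDC6, PDC5 and ENO1 had ranges of 0.16, 0.26, 0.36 and 0.38, below the median of all probe sets. That of ADH3 was narrower than that of the main isoenzyme HXK2, at 0.27.

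The alternative isoenzymes did not share 1 highest group. NQM1, SOL4, GPM2 and TKL2 had their highest mean in eco1-W216G, at 10.35, 8.82, 9.47 and 9.20. HXK1 and TDH1 had theirs in eco1-W216G with the rad61 deletion, at 13.21 and 12.90, and both were lowest in wild type, at 11.89 and 11.28. ADH5, an alcohol dehydrogenase isoenzyme, was lowest in wild type at 9.92 and highest in the earlier fob1 deletion at 10.73. NQM1 and SOL4 were lowest in wild type, at 7.13 and 5.96, while GPM2 was lowest in the strain labelled as mcd1 fob1 with REC8, at 6.64.

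**Figure D1:**
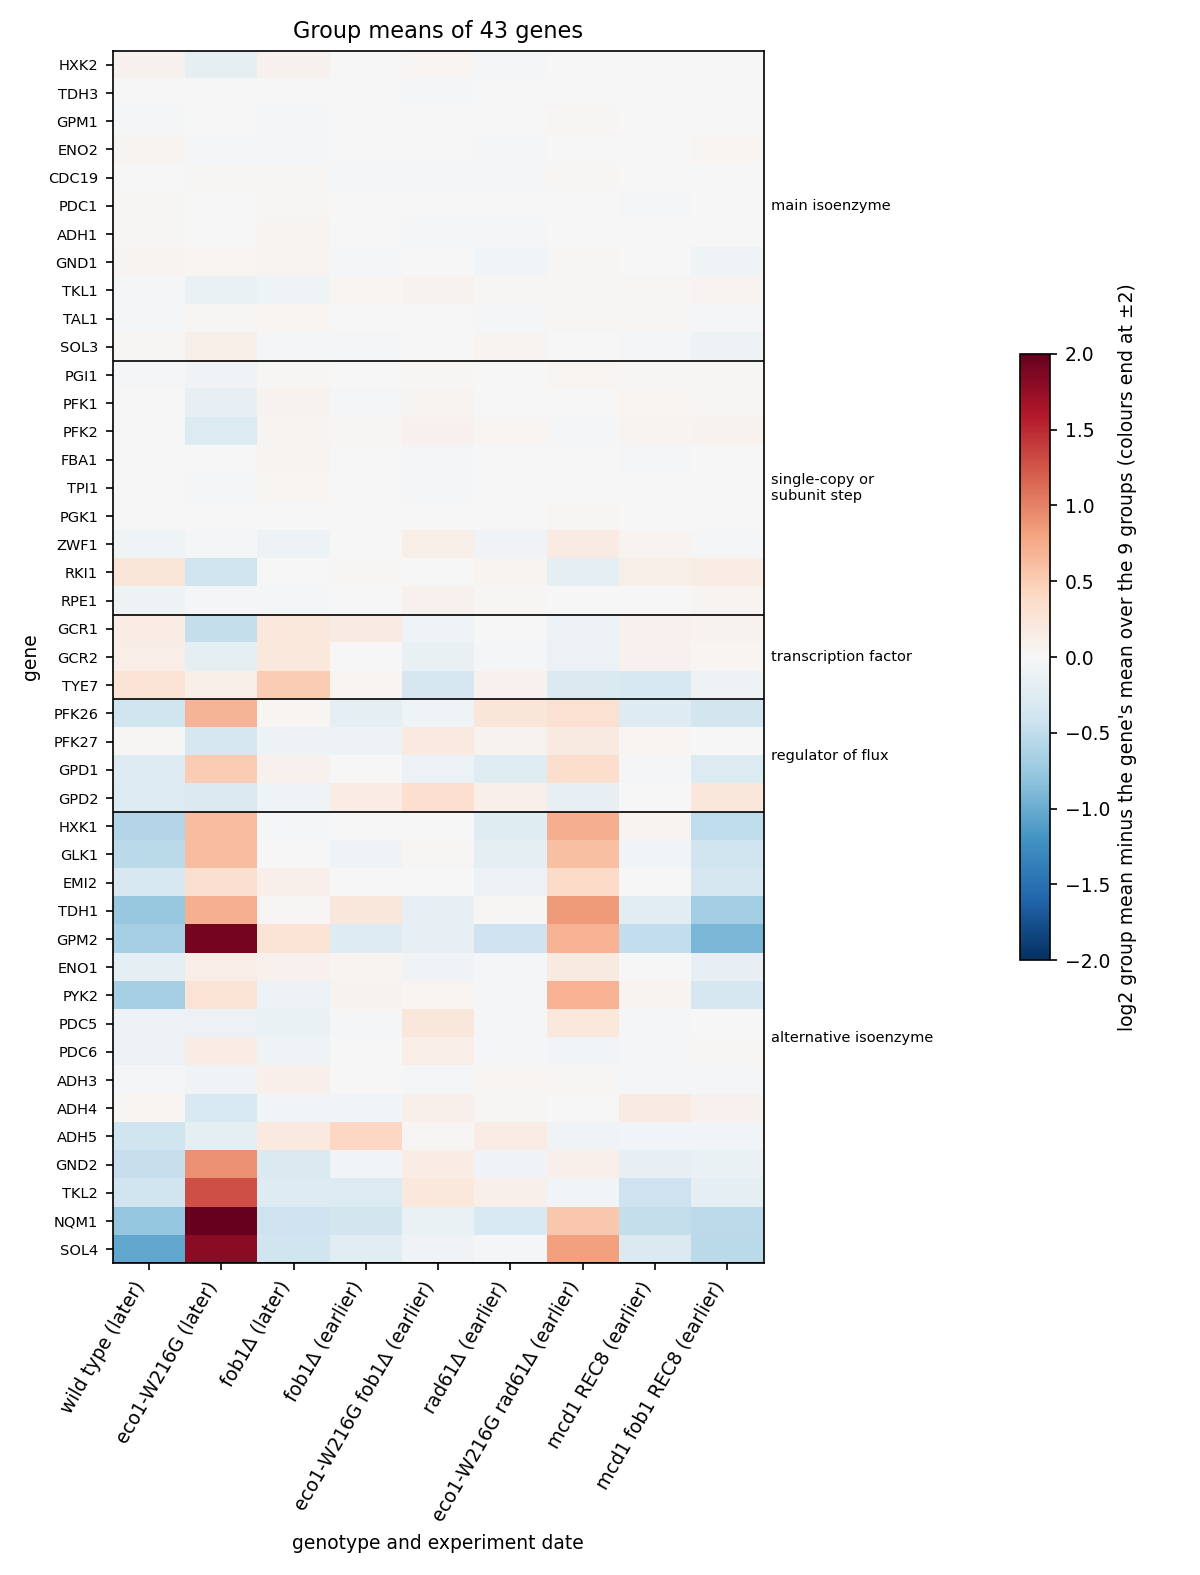
Group means of the 43 genes over the 9 groups, as the log2 mean of 3 arrays minus the gene's own mean over all groups, with blue for lower, red for higher and genes ordered by class. The main isoenzymes are nearly white throughout, and the strongest red stands in eco1-W216G for NQM1, SOL4 and GPM2.

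The main isoenzymes were also among the brightest probe sets. Of the 15 members with a mean log2 intensity of at least 14, 9 are main isoenzymes. All 219 probe sets in that band had a median range of 0.13, and 39.7% of them passed the test between eco1-W216G and wild type, against 54.1% and 54.3% in the bands below. TDH3, which held the narrowest range, stood at the 100th percentile of mean signal, the top of the scale. The part of this brightness in the narrow ranges was not tested, so a level signal does not by itself show steady RNA.

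The first comparison asks what eco1-W216G changes in otherwise wild-type cells, both grown on the later date. Among the members, 13 rose and 7 fell (limma, adjusted p under 0.05), which is 20 of 43, beside 53.6% of all probe sets. In the upward direction 23.7% of all probe sets were called, and in the downward direction 30%. By class, 11 of the 16 alternative isoenzymes rose and 1 fell, with a median difference of 1.06, while 1 of the 11 main isoenzymes fell and none rose, with a median of -0.01. The median over all probe sets was -0.05. The arrays of the 2 groups did not overlap for 24 members, beside 66.3% of all probe sets.

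In the first step of glycolysis, the phosphorylation of glucose, the alternative kinases rose and the main hexokinase fell. HXK1, the hexokinase known for expression on carbon sources other than glucose, read 11.78, 12.01 and 11.89 in wild type and 13.35, 13.07 and 12.88 in eco1-W216G, in log2 intensity. The lowest mutant array lay above the highest wild-type array, and the difference was 1.20 ± 0.14 (SE, adjusted p = 5.06e-07). GLK1, the glucokinase gene, went from 12.41, 12.58 and 12.36 to 13.85, 13.67 and 13.31, a rise of 1.16 ± 0.17 (adjusted p = 6.8e-06). EMI2, a close relative of GLK1, rose by 0.64 ± 0.11 (adjusted p = 5.58e-05). HXK2, the main hexokinase on glucose, moved the other way, from 14.22, 14.19 and 14.16 to 14.08, 13.90 and 13.80. This fall of 0.26 ± 0.06 (adjusted p = 0.00166) was small but without overlap, and HXK2 was the one main isoenzyme called.

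The phosphofructokinase step changed in its subunits and in its activator. PFK1 and PFK2 encode the alpha and beta subunits of the enzyme. PFK2 fell by 0.27 ± 0.06 (adjusted p = 0.000386). PFK1 fell by 0.18 ± 0.06 (adjusted p = 0.0131), and its call was lost without eco1-W216G replicate 3 or wild-type replicate 1 (adjusted p up to 0.0585). PFK26, which makes the activator fructose 2,6-bisphosphate, read 9.44, 9.28 and 9.25 in wild type and 10.37, 10.49 and 10.32 in eco1-W216G, a rise of 1.07 ± 0.22 (adjusted p = 0.000353). The second gene for that activity, PFK27, gave -0.35 ± 0.17 (adjusted p = 0.0762), with mutant arrays from 9.55 to 10.38 across the wild-type range of 10.21 to 10.47. Without eco1-W216G replicate 1, the highest of the mutant arrays, its value was -0.56 (adjusted p = 0.00683).

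In lower glycolysis each alternative isoenzyme rose beside a main isoenzyme that gave no call. TDH1, the glyceraldehyde-3-phosphate dehydrogenase known for stationary phase, read 10.79, 11.54 and 11.49 in wild type and 12.84, 12.56 and 12.82 in eco1-W216G. The groups did not overlap, and the rise was 1.47 ± 0.34 (adjusted p = 0.00111). TDH3 differed by 0.02 ± 0.04 (adjusted p = 0.67). GPM2, a homologue of phosphoglycerate mutase, had the widest separation of this branch, from 6.99, 6.85 and 6.84 to 9.46, 9.56 and 9.39. Its rise was 2.58 ± 0.32 (adjusted p = 8.76e-07), 5.96-fold, while GPM1, the main mutase, differed by 0.02 ± 0.04 (adjusted p = 0.671). PYK2, a pyruvate kinase that does not need fructose 1,6-bisphosphate, rose by 0.95 ± 0.16 (adjusted p = 5.19e-05), and CDC19, the main pyruvate kinase, differed by 0.00 ± 0.04 (adjusted p = 0.941). ENO1, the enolase less induced by glucose, is bright for an alternative isoenzyme and rose by 0.33 ± 0.10 (adjusted p = 0.00781). ENO2, the glucose-induced enolase, gave -0.09 ± 0.05 (adjusted p = 0.132).

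**Figure D2:**
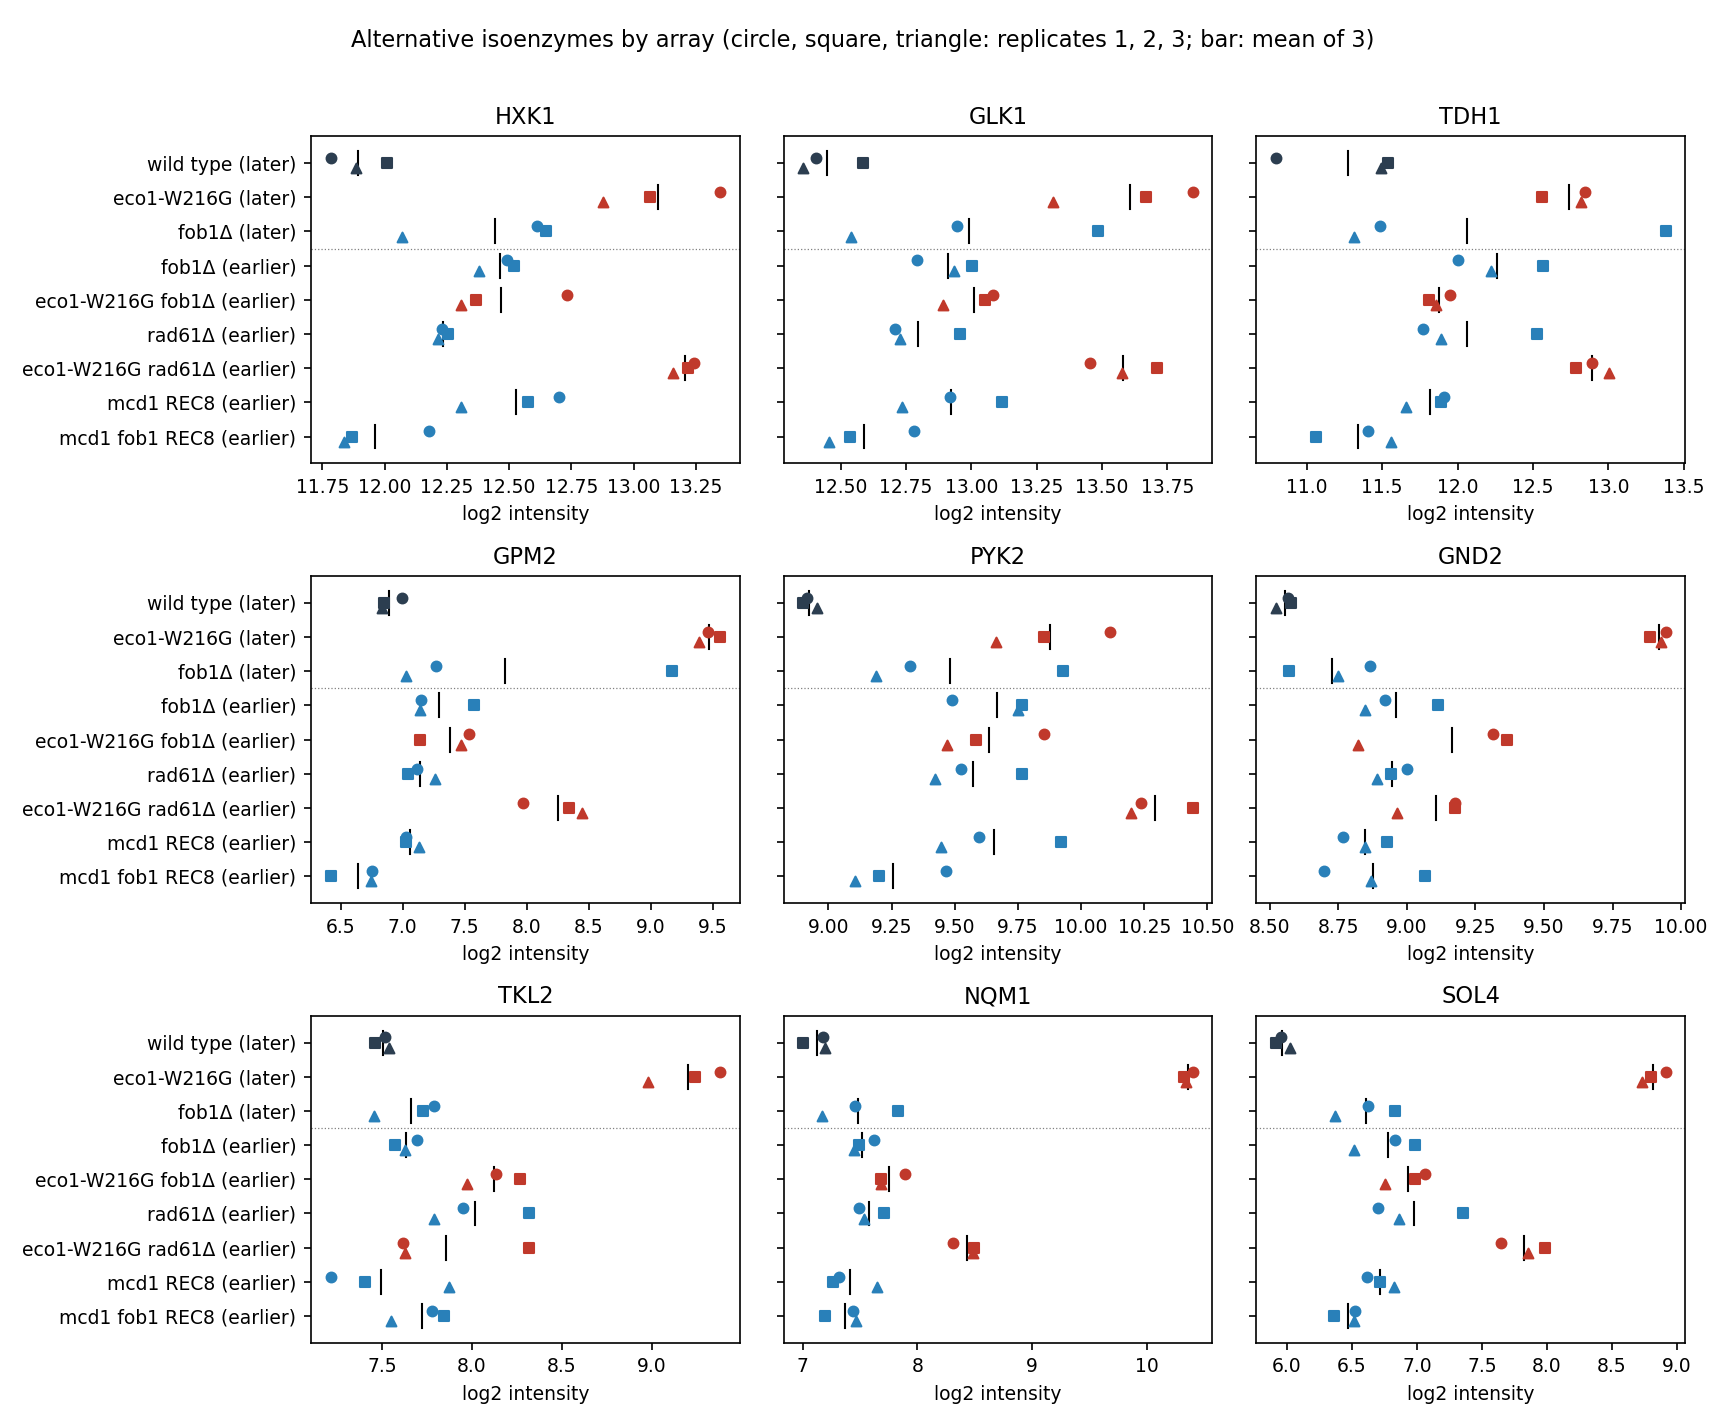
Log2 intensity on every array for 9 alternative isoenzymes, 1 panel a gene, with the 9 groups on the vertical axis, marker shapes for replicates 1 to 3, a bar for the mean, and the dotted line between the later and the earlier date. All 3 eco1-W216G arrays of the later date lie to the right of all 3 wild-type arrays in every panel. The 9 genes are among those that passed the test in that comparison, so this separation is a description. Of all probe sets, 66.3% had no overlap there. In the GPM2 and TDH1 panels replicate 2 of the later fob1 deletion lies apart from replicates 1 and 3.

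TDH1, TDH2 and TDH3 are close in sequence, so the TDH1 reading was set beside the control probe sets that the array carries for this gene. The 3′, middle and 5′ control probe sets were 1.42 ± 0.31, 1.76 ± 0.42 and 2.00 ± 0.42 higher in eco1-W216G (adjusted p = 0.000704, 0.00135 and 0.000483). A further middle control, whose name marks probes shared with other sequences, differed by 0.02 ± 0.04 (adjusted p = 0.689). The difference between the 3′ and 5′ controls of TDH1 ran from -0.27 to 0.67 over the 27 arrays and separated these groups, with 0.49 to 0.67 in wild type and -0.12 to 0.06 in eco1-W216G. That of ACT1, the actin gene, ran from 0.41 to 0.56 over all arrays. The part of the 3′ to 5′ difference in the TDH1 change was not tested. The TDH1 rise was thus seen with the 3′, middle and 5′ controls, and the probe set shared with other sequences, the brightest of these, gave no call. Cross-hybridisation between TDH1 and its relatives was not tested.

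**Figure D3:**
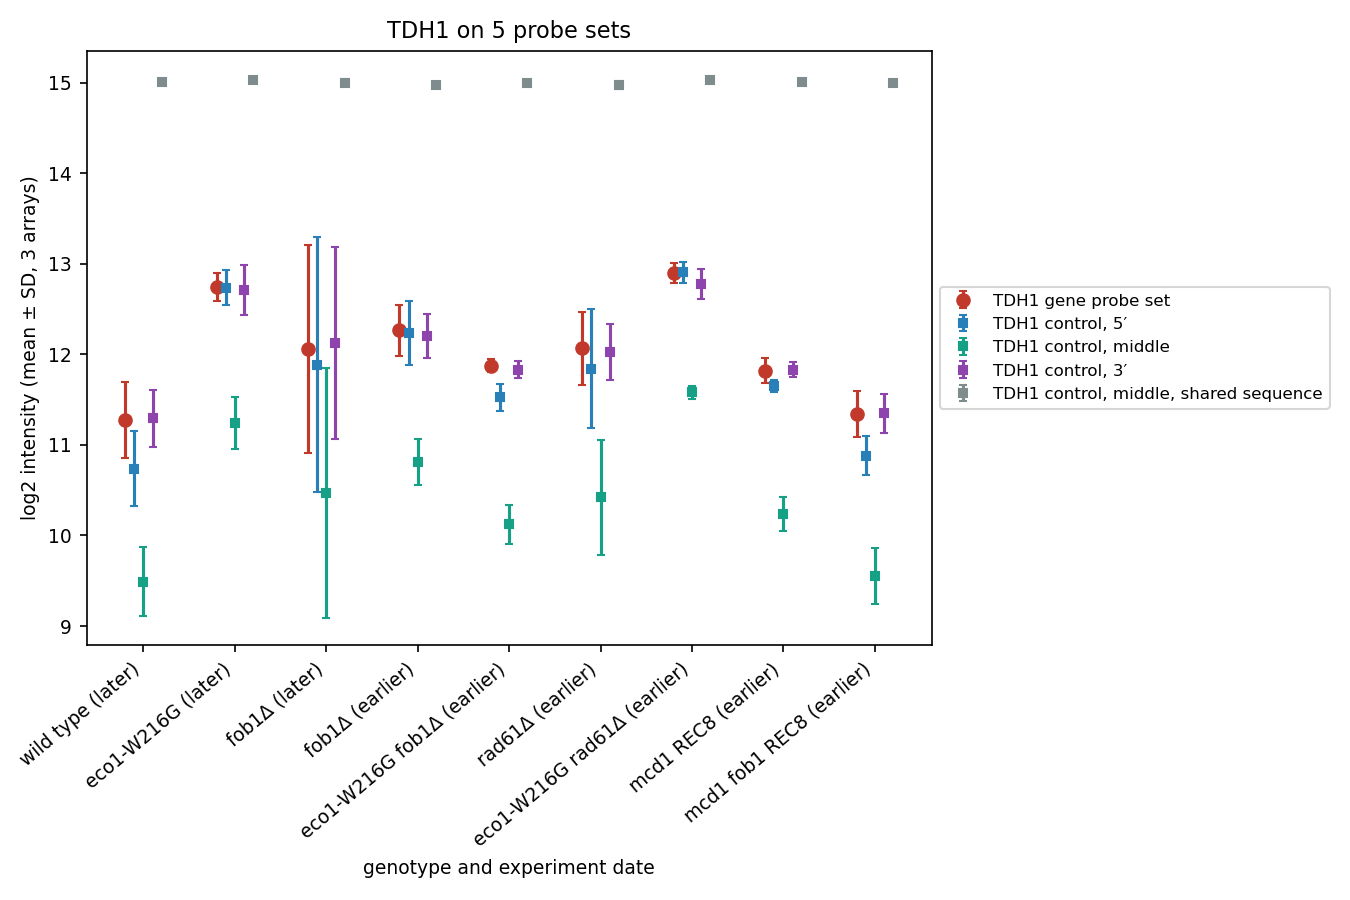
Mean log2 intensity ± SD of 3 arrays for the TDH1 gene probe set and 4 TDH1 control probe sets in the 9 groups. The gene probe set and the 3′, middle and 5′ controls move together from group to group, and the control with shared probes stays level in all groups.

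Of the 7 fermentation genes, 1 passed the test. PDC1, the main pyruvate decarboxylase, gave -0.03 ± 0.04 (adjusted p = 0.544), and PDC5, known to rise when PDC1 is lost, gave 0.00 ± 0.13 (adjusted p = 0.987). PDC6, a minor decarboxylase, gave 0.26 ± 0.12 (adjusted p = 0.0719). ADH1, the main fermentative alcohol dehydrogenase, and ADH3, the mitochondrial enzyme, gave -0.02 ± 0.04 and -0.04 ± 0.06 (adjusted p = 0.687 and 0.563). None of these 5 genes passed the test. ADH4, an alcohol dehydrogenase known in zinc limitation, fell by 0.34 ± 0.11 (adjusted p = 0.0161), and leaving out eco1-W216G replicate 2 or 3 or wild-type replicate 2 ended the call (adjusted p up to 0.0776). ADH5 gave 0.20 ± 0.13 (adjusted p = 0.18).

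Glycerol 3-phosphate dehydrogenase diverts carbon from glycolysis to glycerol. GPD1, the osmotically induced isoenzyme, read 12.26, 12.36 and 12.24 in wild type and 13.18, 13.01 and 12.94 in eco1-W216G, a rise of 0.76 ± 0.12 (adjusted p = 2.93e-05) without overlap. GPD2, known for its part in anaerobic redox balance, gave -0.01 ± 0.13 (adjusted p = 0.95), with mutant arrays from 9.68 to 10.05 around wild-type arrays of 9.81 to 9.84.

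The widest changes stood in the pentose phosphate pathway, where all 4 alternative isoenzymes rose. NQM1, a transaldolase paralogue known from the diauxic shift, read 7.18, 7.01 and 7.19 in wild type and 10.40, 10.32 and 10.34 in eco1-W216G. The mutant arrays lay close together and far above wild type, with a rise of 3.23 ± 0.13 (adjusted p = 2.14e-14). TAL1, the main transaldolase, differed by 0.05 ± 0.05 (adjusted p = 0.385). SOL4, a 6-phosphogluconolactonase, went from 5.95, 5.91 and 6.02 to 8.91, 8.80 and 8.74, a rise of 2.85 ± 0.14 (adjusted p = 1.06e-12) or 7.23-fold. Its partner SOL3, the main lactonase, gave 0.09 ± 0.07 (adjusted p = 0.233).

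TKL2, the minor transketolase, went from 7.52, 7.46 and 7.54 to 9.38, 9.24 and 8.98, a rise of 1.69 ± 0.17 (adjusted p = 6.79e-08), and TKL1, the main transketolase, gave -0.11 ± 0.06 (adjusted p = 0.163). GND2, the minor 6-phosphogluconate dehydrogenase, went from 8.57, 8.58 and 8.52 to 9.94, 9.89 and 9.93, a rise of 1.36 ± 0.11 (adjusted p = 3.29e-09). GND1, its main counterpart, gave -0.01 ± 0.06 (adjusted p = 0.879). Neither minor enzyme had overlapping arrays. Among the steps with a single gene, RKI1, the ribose 5-phosphate isomerase, read 12.90, 12.92 and 12.93 in wild type and 12.13, 12.31 and 12.37 in the mutant, a fall of 0.64 ± 0.12 (adjusted p = 0.00018). ZWF1, which encodes the first enzyme of the pathway, gave 0.06 ± 0.16 (adjusted p = 0.769), and RPE1, the epimerase, gave 0.05 ± 0.07 (adjusted p = 0.554).

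The remaining single-gene steps of glycolysis, PGI1, FBA1, TPI1 and PGK1, encode the isomerase of glucose 6-phosphate, aldolase, triose phosphate isomerase and phosphoglycerate kinase. Their differences lay between -0.03 and 0.00 on the log2 scale, with adjusted p from 0.543 to 0.931. Of the transcription factors, GCR1, the activator of glycolytic genes, fell from 9.91, 10.06 and 9.90 to 9.36, 9.42 and 9.20, a difference of -0.63 ± 0.11 (adjusted p = 6.96e-05). GCR2, which works together with Gcr1, gave -0.32 ± 0.09 (adjusted p = 0.00419), also lower without overlap. TYE7, a helix-loop-helix activator of glycolytic genes, gave -0.16 ± 0.19 (adjusted p = 0.489).

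To compare partners directly, the log2 ratio of each of 18 isoenzyme pairs was tested in the same model, with the ratios adjusted together with all probe sets. In eco1-W216G against wild type, 12 ratios rose and 3 fell, beside 53.6% of single probe sets called. The share called among ratios of other gene pairs was not computed, here or in the comparisons below. The ratios of the glucose kinases all have HXK2 as their second gene, so they are not separate results. A ratio within an array shows unequal change of its partners' signals and says nothing of their relative levels. Where the second gene is among the brightest, the ratio nearly repeats the first gene's own difference. TDH1 over TDH3 rose by 1.45 and TDH1 by 1.47. Whether the RNA of the main partners was steady was not tested. NQM1 over TAL1 rose by 3.18 ± 0.13 (adjusted p = 1.95e-14), SOL4 over SOL3 by 2.76 ± 0.15 (adjusted p = 2.49e-12) and GPM2 over GPM1 by 2.55 ± 0.31 (adjusted p = 8.2e-07). In the hexokinases, where partners moved in opposite directions, HXK1 over HXK2 rose by 1.47 ± 0.12 (adjusted p = 1.19e-09), GLK1 over HXK2 by 1.42 ± 0.14 (adjusted p = 4.86e-08) and EMI2 over HXK2 by 0.91 ± 0.09 (adjusted p = 1.67e-08).

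The ratios that fell were PFK27 over PFK26 at -1.42 ± 0.21 (adjusted p = 1.03e-05), GPD2 over GPD1 at -0.77 ± 0.17 (adjusted p = 0.000852) and ADH4 over ADH1 at -0.32 ± 0.12 (adjusted p = 0.0259). In the first 2 of these, the gene in the denominator was the one called. PDC5 over PDC1, ADH3 over ADH1 and ADH5 over ADH1 gave no call, at 0.03 ± 0.12, -0.02 ± 0.06 and 0.23 ± 0.12 (adjusted p = 0.832, 0.784 and 0.119). PDC6 over PDC1 rose by 0.29 ± 0.12 (adjusted p = 0.037), but it turned to -0.06 (adjusted p = 0.723) when quantile normalization was repeated, and it was lost without eco1-W216G replicate 2 or 3 or wild-type replicate 2 and when only the arrays compared were fitted. The ADH4 ratio was lost on the same removals (adjusted p up to 0.0997).

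**Figure D4:**
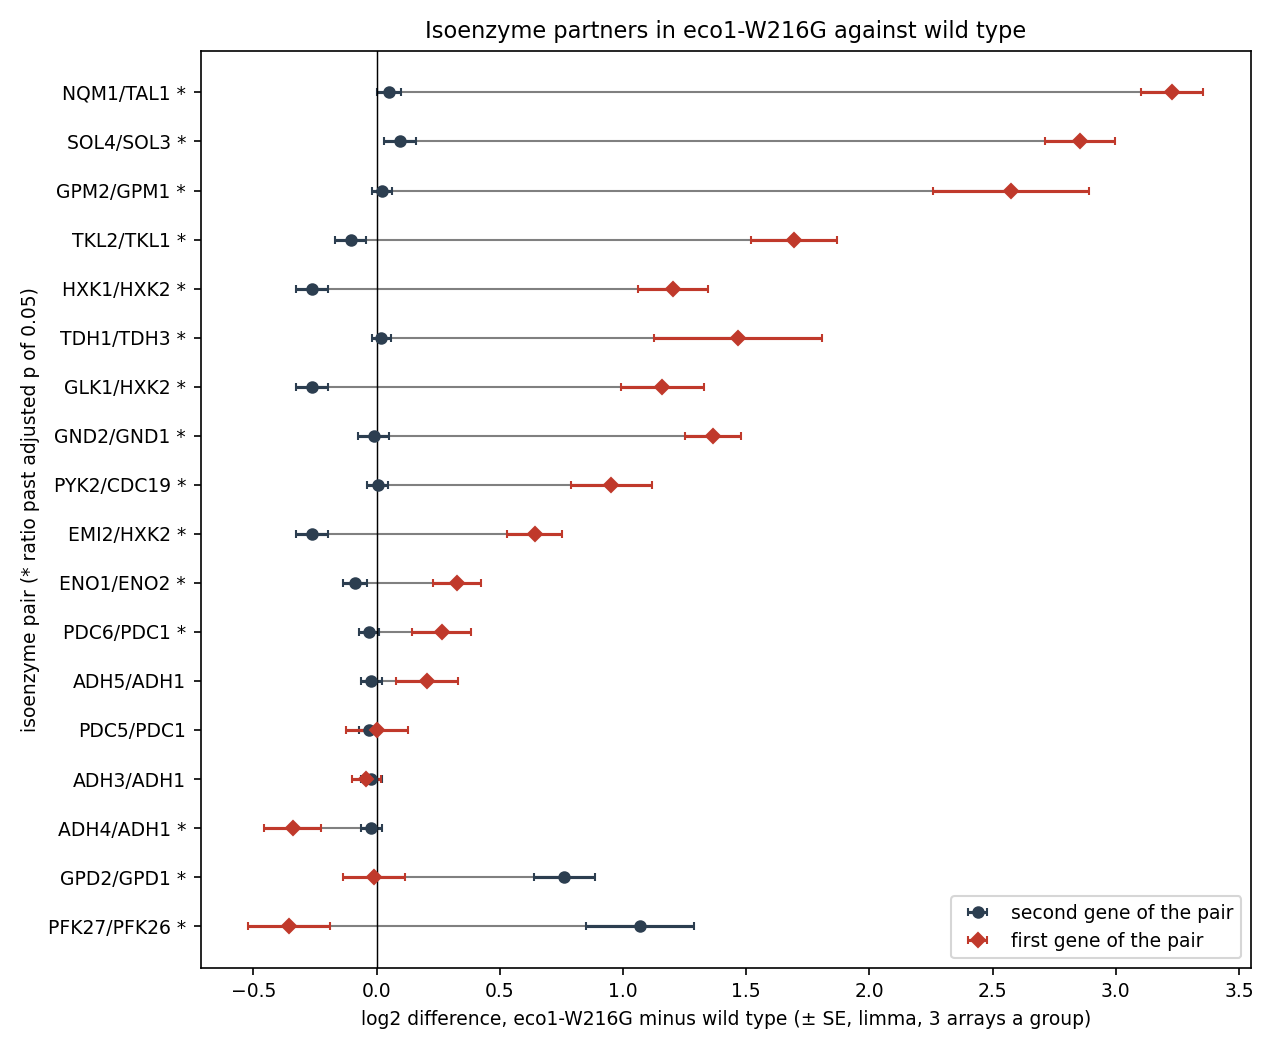
Log2 difference between eco1-W216G and wild type (± SE) for both partners of 18 isoenzyme pairs, diamonds for the first gene named and circles for the second, with an asterisk where the ratio passed the test. For 10 of the pairs drawn from NQM1/TAL1 down to EMI2/HXK2 the diamond lies well above 0 and the circle near or below it, while in GPD2/GPD1 and PFK27/PFK26 the circle is the one displaced.

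Stress genes moved in the same direction as most of the alternative isoenzymes. All 15 stress markers, which include heat shock and trehalose genes, rose in eco1-W216G, with a median of 1.88, beside 23.7% of all probe sets. The markers were listed with earlier results of these data known, so this count is a description. Their mean log2 intensity per array was 9.96 to 10.05 in wild type and 11.79 to 12.03 in eco1-W216G. The values in the remaining groups were 11.21 to 11.36 in eco1-W216G with the rad61 deletion, 10.64 to 10.82 in eco1-W216G with the fob1 deletion, 10.42 to 10.55 in the earlier and 10.05 to 10.83 in the later fob1 deletion, and 10.43 to 11.00 in the rad61 deletion. The strains labelled with REC8 lay at 10.28 to 10.50 and, with the fob1 mutation, at 10.08 to 10.46. The part of a stress response in the isoenzyme changes was not tested.

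The next comparison asks what eco1-W216G changes in cells without RAD61, both groups being of the earlier date. Here 8 of the 43 members rose and none fell, beside 6.72% of all probe sets called in either direction, 5.18% upward and 1.54% downward. The arrays did not overlap for 15 members, beside 26.1% of all probe sets. Replicate numbers paired the samples by the rule given below. With replicate number as a block shared by all groups and both dates, 11.4% of all probe sets were called, and no member changed its call. All 8 of these members had also risen in the wild-type background. That comparison shares no array with this one. Both use the same estimate of spread from a single model of all arrays, so they are not separate tests. The matching share among all probe sets called upward here was not computed, so the overlap of the 8 members is a description.

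HXK1 read 12.23, 12.26 and 12.22 in the rad61 deletion and 13.24, 13.22 and 13.16 in the double mutant, a rise of 0.97 ± 0.14 (adjusted p = 0.000164). GLK1 went from 12.71, 12.96 and 12.72 to 13.45, 13.71 and 13.58, a rise of 0.78 ± 0.17 (adjusted p = 0.00646). In both genes every double mutant array lay above every rad61 deletion array. EMI2 rose by 0.51 ± 0.11 (adjusted p = 0.00739), GPD1 by 0.59 ± 0.12 (adjusted p = 0.00591) and PYK2 by 0.72 ± 0.16 (adjusted p = 0.00915). The PYK2 call was lost without double mutant replicate 2 (adjusted p = 0.0585).

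NQM1 read 7.50, 7.71 and 7.54 in the rad61 deletion and 8.31, 8.49 and 8.49 in the double mutant, a rise of 0.85 ± 0.13 (adjusted p = 0.000175). SOL4 went from 6.70, 7.35 and 6.86 to 7.64, 7.98 and 7.86, a rise of 0.85 ± 0.14 (adjusted p = 0.000633), or 1.04 without rad61 deletion replicate 2. Both pentose phosphate genes were thus higher in all 3 double mutant arrays. GPM2 went from 7.11, 7.04 and 7.26 to 7.97, 8.34 and 8.44, a rise of 1.11 ± 0.32 (adjusted p = 0.0363) that was lost when any of these 6 arrays was left out (adjusted p up to 0.118).

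Several genes that rose in the wild-type background gave no call without RAD61. TKL2 read 7.95, 8.31 and 7.79 in the rad61 deletion and 7.62, 8.32 and 7.63 in the double mutant, a difference of -0.16 ± 0.17 (95% interval -0.52 to 0.20). GND2 differed by 0.16 ± 0.11 (95% interval -0.08 to 0.40), with arrays up to 9.18 in the double mutant, of which the lowest, 8.96, lay below the highest of the rad61 deletion. For both genes the groups overlapped. TDH1 gave 0.83 ± 0.34 (adjusted p = 0.149) although its arrays of 12.79 to 13.01 lay above the rad61 deletion's 11.77 to 12.53. Left without the later fob1 deletion replicate 2, an array outside this comparison that adds to the shared estimate of spread, TDH1 kept its value of 0.83 and passed the test (adjusted p = 0.00756), as did ENO1 at 0.21 (adjusted p = 0.0318, 0.198 with all arrays).

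PFK26 depended on 1 array. It read 9.50, 10.71 and 9.67 in the rad61 deletion and 9.91 to 10.15 in the double mutant. Replicate 2 of the rad61 deletion stood far above the other 5 arrays. With all arrays the difference was 0.06 ± 0.22 (adjusted p = 0.901), and without that replicate it was 0.44 ± 0.17 (adjusted p = 0.105). With the later fob1 deletion replicate 2 left out too, PFK26 kept that value and passed the test (adjusted p = 0.00228). Under that setting TDH1 at 1.06, ENO1 at 0.26 and GPD2 at -0.43 were called as well (adjusted p = 0.000662, 0.013 and 0.0242). This made 12 members, and the share of all probe sets called under that setting was not computed. GPD2 was called without rad61 deletion replicate 2 alone, at -0.43 ± 0.12 (adjusted p = 0.0316). With all arrays it gave -0.27 ± 0.13 (adjusted p = 0.198).

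Of the 18 ratios, 7 rose and 1 fell without RAD61, beside 6.72% of single probe sets called. HXK1 over HXK2 rose by 0.94 ± 0.12 (adjusted p = 2.45e-05), GLK1 over HXK2 by 0.76 ± 0.14 (adjusted p = 0.00191) and SOL4 over SOL3 by 0.92 ± 0.15 (adjusted p = 0.000458). NQM1 over TAL1 rose by 0.79 ± 0.13 (adjusted p = 0.000395). HXK2 itself gave 0.03 ± 0.06 (adjusted p = 0.852) in this background, and GCR1 gave -0.11 ± 0.11 (adjusted p = 0.564). The ratio that fell was GPD2 over GPD1, at -0.86 ± 0.17 (adjusted p = 0.00371). When only the arrays compared were fitted, this ratio and the SOL4 rise lost their calls (adjusted p = 0.0781 and 0.0524). Among the stress markers, 10 of 15 rose, beside 5.18% of all probe sets.

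In cells without FOB1, no member was called between eco1-W216G with the fob1 deletion and the fob1 deletion of the same date. An unadjusted p under 0.05 (limma) was found for 3 members, or 6.98%, beside 11.1% of all probe sets. Of all probe sets, 0.787% were called after adjustment, or 1.24% with replicate as a block, which again changed no member's call. For 8 members the arrays did not overlap, beside 19.3% of all probe sets. HXK1 read 12.49, 12.52 and 12.38 without and 12.73, 12.37 and 12.31 with eco1-W216G, a difference of 0.01 ± 0.14 (95% interval -0.29 to 0.30). NQM1 read 7.62, 7.49 and 7.45 without and 7.90, 7.69 and 7.68 with the mutation, a difference of 0.23 ± 0.13 (95% interval -0.03 to 0.49). The HXK1 arrays overlapped, and those of NQM1 did not.

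The 3 members with a low unadjusted p in that comparison were ADH5 at -0.40 ± 0.13, TKL2 at 0.49 ± 0.17 and GCR1 at -0.24 ± 0.11 (adjusted p = 0.166, 0.239 and 0.418). ADH5 read 10.67, 10.79 and 10.75 in the fob1 deletion and 10.33, 10.39 and 10.29 in the double mutant. It was called when the later fob1 deletion replicate 2 was left out (adjusted p = 0.0304) and when only the arrays compared were fitted (adjusted p = 0.041). TKL2 went from 7.69, 7.57 and 7.63 to 8.13, 8.27 and 7.97, without overlap and without a call. GPM2 gave 0.09 ± 0.32 (95% interval -0.57 to 0.75), an interval that also holds changes of more than 1.5-fold. No ratio was called, and 0 of the 15 stress markers, 4 of them with an unadjusted p under 0.05.

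**Figure D5:**
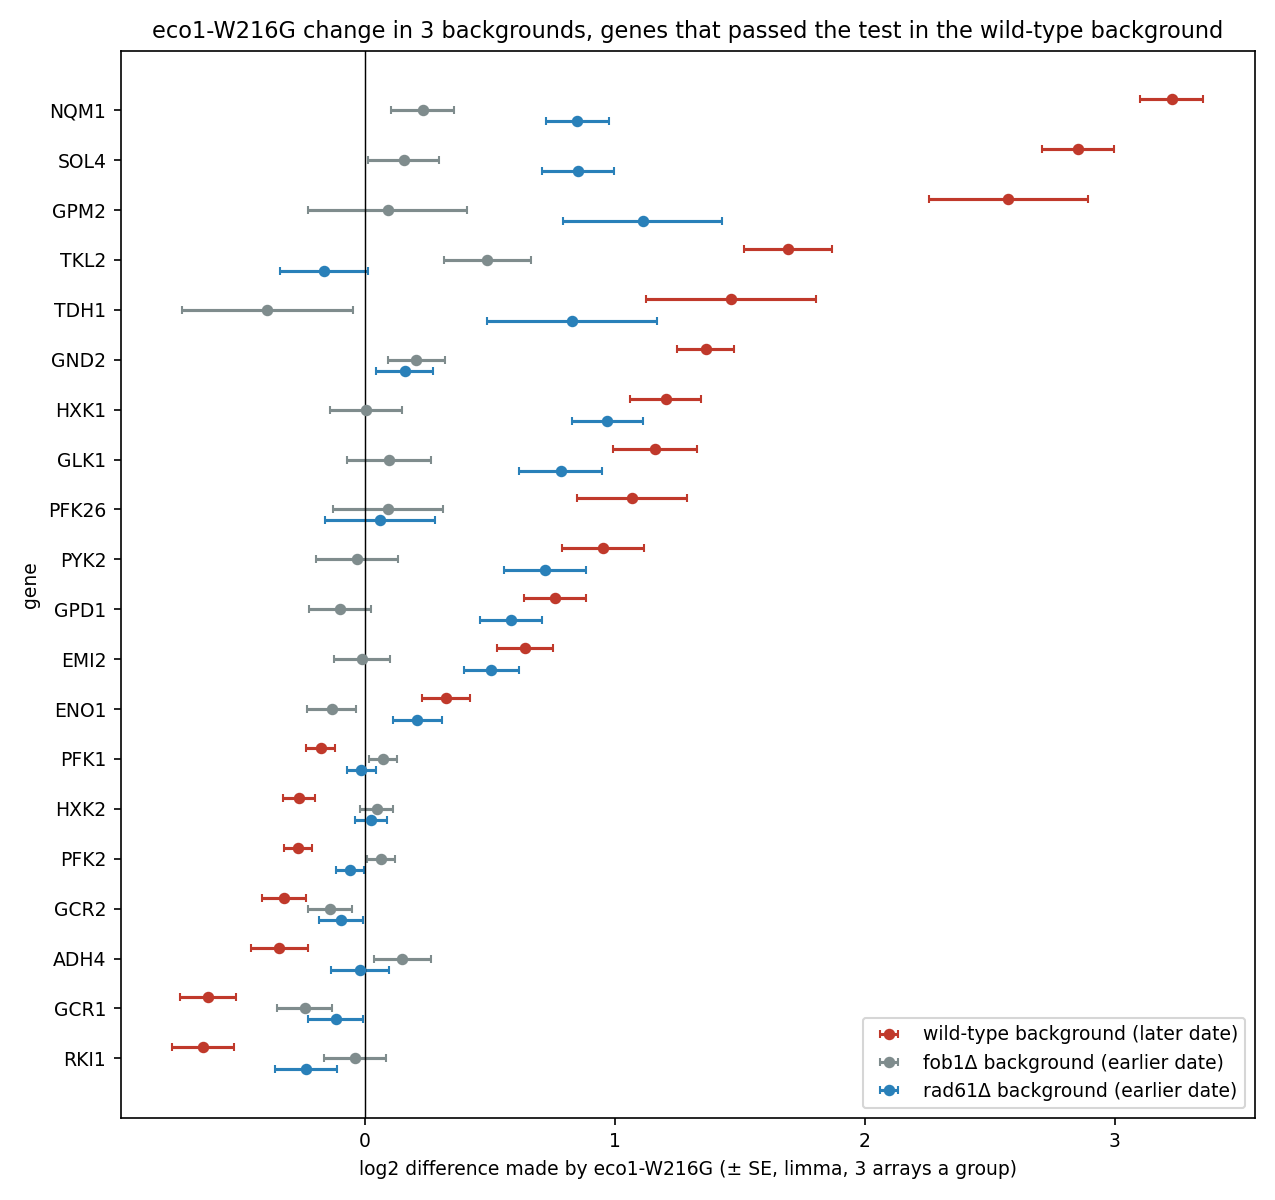
Log2 difference made by eco1-W216G (± SE) in the wild-type, fob1 deletion and rad61 deletion backgrounds for the 20 genes that passed the test in the wild-type background. The genes were chosen on the wild-type values, so those are a description. Without RAD61 the points of HXK1, GLK1, EMI2, PYK2 and GPD1 lie somewhat to the left of those of the wild-type background. Those of NQM1, SOL4, TKL2 and GND2 lie far to the left. The smaller distance does not show that the changes were alike.

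Whether the change differed between backgrounds was tested as an interaction term, the eco1-W216G change without FOB1 or RAD61 minus that in the wild-type background. Each change was taken within its date, but the wild-type background was of the later date and both deletion backgrounds of the earlier, so background and date cannot be told apart. For the fob1 deletion, 14 members had a lower and 6 a higher term, beside 39.2% of all probe sets called, 18% lower and 21.2% higher. NQM1 gave -3.0 ± 0.18 (adjusted p = 1.89e-10), SOL4 -2.70 ± 0.20 (adjusted p = 2.94e-09), GPM2 -2.48 ± 0.45 (adjusted p = 0.000199) and TDH1 -1.85 ± 0.48 (adjusted p = 0.00444). For HXK1 the term was -1.20 ± 0.20 (adjusted p = 9.51e-05). HXK2, PFK1, PFK2 and RKI1, which had fallen in the wild-type background, had terms of 0.31 ± 0.09, 0.25 ± 0.08, 0.33 ± 0.08 and 0.60 ± 0.18 (adjusted p = 0.00986, 0.0186, 0.00211 and 0.00951).

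For the rad61 deletion, 6 members had a lower and 2 a higher term, beside 23.5% of all probe sets called. The lower terms were those of NQM1 at -2.38 ± 0.18 (adjusted p = 1.81e-08), SOL4 at -2.0 ± 0.20 (adjusted p = 7.57e-07), TKL2 at -1.86 ± 0.25 (adjusted p = 2.2e-05), GND2 at -1.20 ± 0.16 (adjusted p = 2.49e-05), GPM2 at -1.46 ± 0.45 (adjusted p = 0.022) and PFK26 at -1.01 ± 0.31 (adjusted p = 0.0223). All 4 alternative isoenzymes of the pentose phosphate pathway were thus among them. Both interaction terms subtract the same change between eco1-W216G and wild type, from the same arrays, so they are not separate results. Of the alternative isoenzymes of glycolysis, GPM2 was called, and it was lost without double mutant replicate 1 (adjusted p = 0.0561). The PFK26 term was -0.63 without rad61 deletion replicate 2 (adjusted p = 0.0508).

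The glucose kinases gave no call for that term as single genes. HXK1 gave -0.23 ± 0.20 (95% interval -0.65 to 0.18), GLK1 -0.38 ± 0.24 (95% interval -0.87 to 0.12) and EMI2 -0.14 ± 0.16 (95% interval -0.46 to 0.19). PYK2 gave -0.23 ± 0.23 (95% interval -0.71 to 0.25), GPD1 -0.17 ± 0.18 (95% interval -0.54 to 0.19) and TDH1 -0.63 ± 0.48 (95% interval -1.64 to 0.37). These intervals hold 0 and also sizeable reductions, so they do not show that the changes were alike. As ratios over HXK2, the same kinases were called, at -0.52 ± 0.16 for HXK1, -0.66 ± 0.20 for GLK1 and -0.42 ± 0.12 for EMI2 (adjusted p = 0.0243, 0.0214 and 0.014). The HXK1 ratio was lost without eco1-W216G replicate 1 or wild-type replicate 1 (adjusted p up to 0.0656), and the GLK1 ratio without double mutant replicate 1 (adjusted p = 0.0554). HXK2 itself had a higher term of 0.29 ± 0.09 (adjusted p = 0.025). The HXK2 term was lost in 7 alternatives (adjusted p up to 0.0852), among them without eco1-W216G replicate 2 or 3, rad61 deletion replicate 3, double mutant replicate 2 or wild-type replicate 1. GCR1 had the other higher term, 0.51 ± 0.16 (adjusted p = 0.0213), lost without eco1-W216G replicate 3 or wild-type replicate 2 (adjusted p up to 0.0639).

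The fob1 deletion was compared with wild type on the later date. The wild-type arrays are those of the eco1-W216G comparison, so the results of both comparisons are not separate. With all arrays, 6 alternative isoenzymes rose and no member fell, beside 15.6% of all probe sets called, 8.73% upward and 6.91% downward. The arrays of 9 members did not overlap, beside 32.1% of all probe sets. ADH5 read 10.04, 10.01 and 9.72 in wild type and 10.37, 10.92 and 10.25 in the fob1 deletion, a rise of 0.59 ± 0.13 (adjusted p = 0.00607). SOL4 went from 5.95, 5.91 and 6.02 to 6.62, 6.83 and 6.37, a rise of 0.64 ± 0.14 (adjusted p = 0.00681). In both genes all fob1 deletion arrays lay above wild type, with replicate 2 the highest. PYK2, HXK1, GLK1 and EMI2 rose by 0.56 ± 0.16, 0.55 ± 0.14, 0.54 ± 0.17 and 0.42 ± 0.11 (adjusted p = 0.0255, 0.0138, 0.0335 and 0.0154), GLK1 with overlapping arrays.

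These calls rested largely on replicate 2 of the later fob1 deletion. That array read 13.38 for TDH1, against 11.49 and 11.31 in replicates 1 and 3, and 9.17 for GPM2, against 7.27 and 7.03. PFK26 read 10.35 there, against 9.54 and 9.39. Its GND2 and TKL2, at 8.57 and 7.73, did not stand above replicate 1, at 8.86 and 7.79. Without this array, 2 members were called, ADH5 at 0.39 ± 0.10 (adjusted p = 0.0287) and SOL4 at 0.53 ± 0.15 (adjusted p = 0.0373). Without replicate 3, 12 members were called, with TDH1 at 1.16 (adjusted p = 0.0199) and GPM2 at 1.33 (adjusted p = 0.00501). When only the 6 arrays of these groups were fitted, none was. The shares of all probe sets called under these settings were not computed, so these counts are a description. HXK1, GLK1, EMI2 and PYK2 were also lost without wild-type replicate 3 (adjusted p = 0.0599, 0.131, 0.0784 and 0.079). HXK1 and GLK1 were lost without fob1 deletion replicate 1 as well (adjusted p = 0.0612 and 0.0633), GLK1 and PYK2 without wild-type replicate 1 (adjusted p = 0.0749 and 0.0533), and PYK2 without wild-type replicate 2 (adjusted p = 0.0728). Of the stress markers, 5 of 15 rose, beside 8.73% of all probe sets. The mean log2 intensity of the markers was 10.83 in replicate 2, 10.49 in replicate 1 and 10.05 in replicate 3.

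The 18 isoenzyme ratios of this comparison gave 8 calls, all upward, beside 15.6% of single probe sets called. Without replicate 2 of the fob1 deletion they gave 4, with no share of all probe sets computed for that setting. These 4 were HXK1 over HXK2 at 0.47 ± 0.13 (adjusted p = 0.0291), EMI2 over HXK2 at 0.31 ± 0.08 (adjusted p = 0.0291), SOL4 over SOL3 at 0.50 ± 0.14 (adjusted p = 0.0307) and ADH5 over ADH1 at 0.38 ± 0.11 (adjusted p = 0.0314).

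The fob1 deletion strain was grown on both dates, which sets a scale for differences between dates. No member and no ratio was called between them, and 4.81% of all probe sets were. At an unadjusted p under 0.05 (limma) stood 2 members, or 4.65%, beside 20.9% of all probe sets. TDH1 read 12.00, 12.57 and 12.22 on the earlier date. Against all 3 later arrays the difference was 0.20 ± 0.34 (adjusted p = 0.78), and without later replicate 2 it was called at 0.86 (adjusted p = 0.0477), together with ADH5 at 0.42 (adjusted p = 0.0465).

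The rad61 and fob1 deletions of the earlier date were not told apart in these genes. No member was called, and 0.035% of all probe sets were. At an unadjusted p under 0.05 (limma) stood 2 members, or 4.65%, beside 4.88% of all probe sets. The 2 were TKL2 at 0.38 ± 0.17 and ADH5 at -0.27 ± 0.13 (adjusted p = 0.958 and 1).

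In the strains labelled as mcd1 with REC8, no member was called either. With the fob1 mutation, against the fob1 deletion, 0.297% of all probe sets were called. At an unadjusted p under 0.05 (limma) stood 8 members, or 18.6%, beside 8.01% of all probe sets. The arrays of 11 members did not overlap, beside 17.6% of all probe sets. All 8 had negative differences, and 7 of these are alternative isoenzymes. ADH5 went from 10.67, 10.79 and 10.75 in the fob1 deletion to 10.32, 10.34 and 10.13, a difference of -0.47 ± 0.13 (adjusted p = 0.158). These fob1 deletion arrays, the highest group of ADH5, also entered its comparisons with the rad61 deletion, the eco1-W216G double mutant and the later date. The ADH5 differences are thus not separate results. HXK1 went from 12.49, 12.52 and 12.38 to 12.18, 11.87 and 11.84, a difference of -0.50 ± 0.14 (adjusted p = 0.194). TDH1 gave -0.92 ± 0.34 (adjusted p = 0.43), with arrays of 11.06 to 11.56 below the fob1 deletion's 12.00 to 12.57. The arrays of these 3 genes did not overlap, and when the later fob1 deletion replicate 2 was left out, ADH5, TDH1 and GPM2 were called at unchanged values (adjusted p = 0.0148, 0.021 and 0.0175).

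Within the strains labelled with REC8, intact against mutated FOB1 gave no member call, with 0.0175% of all probe sets called. An unadjusted p under 0.05 (limma) was found for 3 members, or 6.98%, beside 3.03% of all probe sets. The arrays of 7 members did not overlap, beside 9.2% of all probe sets. HXK1 read 12.70, 12.58 and 12.31 with FOB1 and 12.18, 11.87 and 11.84 without, a difference of 0.57 ± 0.14 (adjusted p = 0.906) with arrays that did not overlap. PYK2 gave 0.40 ± 0.16 and EMI2 0.34 ± 0.11 (adjusted p = 0.994 for both), with overlap. In these strains HXK1 had its lowest earlier-date mean where FOB1 was mutated, near the wild-type arrays of the later date at 11.78 to 12.01.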

How the data were processed

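RNA of 27 yeast cultures was prepared with hot acid phenol, and labelled cRNA was made from 300 ng, per the labels' protocols. The authors deposited intensity values on a linear scale. They came from RMA under R 2.15.2, going by the submitters' processing notes. The model had been planned for log2 values, so log2 of the intensity was taken. Whether both dates were normalized together is not given in the sources used here. Intensities ran from 10.372 to 39895, with array medians of 1221.3 to 1268, and no error per probe set was given.

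The table listed 5814 probe sets. After removal of 51 controls and 47 reporters, 5716 entered the tests; 5498 had 1 gene symbol on the platform and 218 had none. A single limma model (limma 3.58.1, R 4.3.3) of 9 group means was fitted to all 27 arrays, with 18 residual degrees of freedom, two-sided tests and Benjamini-Hochberg adjustment over all probe sets within each of 10 comparisons. The threshold was an adjusted p of 0.05. Log2 ratios of 18 isoenzyme pairs were fitted as further rows. Intervals are 95% intervals of single differences, unadjusted. With 3 arrays a group, p-values measure only the spread between these cultures.

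The members and lists were chosen with earlier results of these data known. Every listed member could be named; up to 6 genes of neighbouring pathways were named with values, and stress markers were given as counts and ranges. Alternatives left out each array in turn, both arrays that stood apart, or the probe sets of lowest mean signal (20%), repeated quantile normalization, centred medians, fitted only the arrays compared, used date as a random block, used replicate number as a block, or used a trended, robust prior.

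The replicate number was taken to pair samples where every same-numbered pair of arrays correlated above 0.1 in its deviations from the group means. This held for eco1-W216G without FOB1 (0.347, 0.636 and 0.529) and eco1-W216G without RAD61 (0.381, 0.367 and 0.316). It also held for the rad61 against the fob1 deletion (0.569, 0.114 and 0.23) and FOB1 in the strains labelled with REC8 (0.142, 0.553 and 0.386). In these last comparisons some differently numbered arrays correlated more. Replicate 2 of the rad61 deletion gave 0.2 with replicate 3 of the fob1 deletion. Among the strains labelled with REC8, replicate 1 with FOB1 gave 0.298 with replicate 3 without. The labels do not say what a number marks. The block gave each number 1 effect shared by all groups and both dates, so it was not a fit of pairs within a comparison. Between the dates, same-numbered arrays of the fob1 deletion gave -0.078, 0.1 and 0.136.

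On simulated data with 200 of 5716 probe sets changed, the fit of eco1-W216G against wild type recovered 86 of 100 changes of 1.5-fold and 99 of 100 of 2-fold, with 6.09% false calls. For eco1-W216G without FOB1 it recovered 75 and 97 (7.53% false calls), and for the interaction with FOB1 72 and 95 (2.34%). Each simulation was a single draw with independent normal noise, upward changes in a single group and otherwise equal group means. On the arrays, 53.6% of probe sets were called between eco1-W216G and wild type, in both directions, so these rates need not hold there.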

Additional observations from a re-analysis of the deposited data

Results flagged for a closer look

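Changes made by eco1-W216G that differed between the wild-type background and a deletion background, by an interaction term in limma (adjusted p under 0.05), are collected here. Each value is the log2 change in the deletion background minus that in the wild-type background, and background and date cannot be told apart in it. The wild-type change is the same for both deletions, so their terms are not separate results. With the fob1 deletion, the lower terms in the pentose phosphate pathway were NQM1 at -3.0, SOL4 at -2.70, TKL2 at -1.20 and GND2 at -1.16. The lower terms in glycolysis were GPM2 at -2.48, TDH1 at -1.85, HXK1 at -1.20, GLK1 at -1.06, PYK2 at -0.98, EMI2 at -0.65 and ENO1 at -0.46. For the activator of phosphofructokinase, glycerol and alcohol dehydrogenase they were PFK26 at -0.98, GPD1 at -0.86 and ADH5 at -0.60. The higher terms were PFK27 at 0.65, RKI1 at 0.60, ADH4 at 0.49, PFK2 at 0.33, HXK2 at 0.31 and PFK1 at 0.25. PFK27 had an adjusted p of 0.032 and lost its call on leaving out any of 6 arrays (up to 0.114), and ADH4 was lost on leaving out any of 3 (up to 0.0591).

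Among isoenzyme ratios, the fob1 deletion gave lower terms for NQM1 over TAL1 at -2.95, SOL4 over SOL3 at -2.64, GPM2 over GPM1 at -2.44, TDH1 over TDH3 at -1.81, HXK1 over HXK2 at -1.51 and GLK1 over HXK2 at -1.37. Smaller lower terms were those of TKL2 over TKL1 at -1.34, GND2 over GND1 at -1.22, PYK2 over CDC19 at -0.98, EMI2 over HXK2 at -0.96, ADH5 over ADH1 at -0.61 and ENO1 over ENO2 at -0.54. Higher terms were those of PFK27 over PFK26 at 1.63, GPD2 over GPD1 at 1.05 and ADH4 over ADH1 at 0.49.

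With the rad61 deletion, the terms of single genes were NQM1 at -2.38, SOL4 at -2.0, TKL2 at -1.86, GPM2 at -1.46, GND2 at -1.20, PFK26 at -1.01, HXK2 at 0.29 and GCR1 at 0.51. The PFK26 term was -0.63 (adjusted p = 0.0508) without rad61 deletion replicate 2. The ratios that differed were NQM1 over TAL1 at -2.39, TKL2 over TKL1 at -1.96, SOL4 over SOL3 at -1.84, GPM2 over GPM1 at -1.46, GND2 over GND1 at -1.30, GLK1 over HXK2 at -0.66, HXK1 over HXK2 at -0.52, EMI2 over HXK2 at -0.42 and PFK27 over PFK26 at 1.47.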

How the results depend on the processing

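Of 117 called results for single genes and ratios, all kept their call with median centring, a trended and robust prior or the replicate block, 116 with date as a random block, 114 with repeated quantile normalization, 109 without both arrays that stood apart and 99 when only the arrays compared were fitted. PDC6 over PDC1 in eco1-W216G reversed to -0.060 with repeated quantile normalization, and the cause was not tested. Among the alternatives, the share of all probe sets called was computed for the replicate block only, so the counts below are a description. Leaving out each array in turn gave 18 to 21 members and 13 to 16 ratios for eco1-W216G against wild type, 6 to 10 and 7 to 9 without RAD61, 0 to 1 and 0 to 1 without FOB1, 18 to 21 and 14 to 15 for the interaction with FOB1, and 6 to 11 and 7 to 10 for that with RAD61. The fob1 deletion against wild type gave 2 to 12 members and 4 to 11 ratios, both lowest without its replicate 2 and highest without its replicate 3. The fob1 deletion between dates gave 0 to 2 and 0 to 1, REC8 against the fob1 deletion 0 to 3 and 0 to 5, FOB1 in the strains labelled with REC8 0 to 0 and 0 to 1, and rad61 against fob1 0 to 0 and 0 to 0.

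Without both arrays that stood apart, the counts of members and ratios were 2 and 4 for fob1 against wild type, 1 and 1 for eco1-W216G without FOB1, 2 and 2 for fob1 between dates, 3 and 6 for REC8 against the fob1 deletion, 12 and 9 for eco1-W216G without RAD61, and 11 and 10 for its interaction. With only the arrays compared, fob1 against wild type gave 0 and 0, and eco1-W216G without FOB1 gave 1 member. Without the dimmest probe sets, which removes GPM2, PDC6, TKL2, NQM1 and SOL4, eco1-W216G without RAD61 gave 5 members and 5 ratios, and its interaction 4 and 5. For REC8 against the fob1 deletion, where no ratio had been called, the date block gave 2 ratios, and that filter, median centring, repeated quantile normalization and trended prior gave 1 each. Date as a random block gives no value for fob1 between dates.

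The replicate block, shared by all groups and both dates, changed no call of a member or ratio in the 4 comparisons whose numbers paired the samples. A fit of pairs within each comparison was not run. In the interaction with RAD61, where the numbers pair one of its sides, the block added RKI1 (adjusted p = 0.0183) and ADH5 over ADH1 (adjusted p = 0.0386). Where they share only a number, the block gave 1 member and 2 ratios in REC8 against the fob1 deletion and called PFK27 in eco1-W216G against wild type (adjusted p = 0.0489). In fob1 against wild type it added ENO1, GPD1, GPM2 and PFK27 over PFK26 (adjusted p = 0.0403, 0.0092, 0.044 and 0.0478). Signal over background limits the dim genes: SOL4 read a mean log2 intensity of 5.96 in wild type, where the deleted FOB1 read 3.84 to 4.22.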

Other observations

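Genes beside these pathways also moved in eco1-W216G against wild type. Of 34 measured genes of acetate, acetoin, glycogen, pyruvate and ribose metabolism and their regulators, 12 rose and 10 fell, which is 64.7%, beside 53.6% of all probe sets. ALD3, a stress-induced aldehyde dehydrogenase, rose by 1.94 (adjusted p = 9.97e-11) and ADH2, the glucose-repressed alcohol dehydrogenase, by 1.63 (adjusted p = 0.00048). BDH1, a butanediol dehydrogenase, rose by 1.21 (adjusted p = 1.89e-08), and PGM2, the main phosphoglucomutase, by 1.09 (adjusted p = 1.11e-05). RAP1, which encodes an activator of glycolytic and ribosomal protein genes, fell by 0.87 (adjusted p = 5.27e-09), and ALD5, a mitochondrial aldehyde dehydrogenase, fell by 0.76 (adjusted p = 7.5e-06). Without RAD61, 6 of the 34 rose and 1 fell, beside 6.72% of all probe sets, among them PGM2 at 0.90 and BDH1 at 0.56. Without FOB1 none was called (limma), with 3 at an unadjusted p under 0.05.

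GPD1 and GPM2, which both rose in eco1-W216G, are adjacent genes in the RefSeq annotation of assembly R64. DIA3 and RPN4, nearby, rose by 1.06 (adjusted p = 5.26e-06) and 0.58 (adjusted p = 0.00291), and OSH2 fell by 0.21 (adjusted p = 0.0314). Of all probe sets, 53.6% were called (limma). ENO1 and GND2 have COQ6 between them, at 0.22 (adjusted p = 0.107). PUP2 and GCN5, beside ENO1, gave 0.19 and -0.34 (adjusted p = 0.00675 and 0.000636). MTM1 and RAD2, beside GND2, gave no call. ADH4 and HXK2, which both fell, have ZRT1 and FZF1 between them, without a call (adjusted p = 0.124 and 0.579). PYK2 rose and TYE7 gave no call, and REV1 between them was not called (adjusted p = 0.0867). These genes were chosen by position, after the members' values were known.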
